A study of Mus musculus with 72 samples.

Results

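Whole blood taken from mice 1 day after an exposure to 1 Gy of x-rays was compared with blood of sham-irradiated control mice of the same day. The comparison holds 11 of the 72 arrays of the series, 6 of 1 Gy x-ray mice and 5 of controls, and these were chosen by their sample titles alone. All mice were male C57BL/6 animals, young adults when irradiated, and the controls shared strain and sex but received no dose. The sham treatment is described for the holders of the neutron set-up, with the beam off, and none is described for the x-ray machine, so that handling may have differed. Blood was drawn by cardiac puncture into an RNA stabilisation solution, globin RNA was reduced, and the RNA of 1 mouse was labelled with a single dye and hybridised to 1 whole mouse genome array. Day 1 mice given 4 Gy of x-rays (5 arrays) or 1 Gy of neutrons (6 arrays) were used only to place the 1 Gy x-ray values beside a larger dose and another radiation quality.

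X-rays break DNA, and the breaks activate the transcription factor p53, which switches on genes that halt the cell cycle, start apoptosis and repair the damage. Of the cells in blood, mature B cells are known to die readily after irradiation, T cells less so, and natural killer (NK) cells and platelets are comparatively resistant. Mature red blood cells carry little RNA, so that red cell transcripts in blood come largely from reticulocytes, the youngest circulating red cells, which leave the marrow with stored RNA and lose it within days.

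Levels are given as log2 intensity relative to the median of the detected probes on the same array, a scale on which 1 unit is a doubling, so that they compare 1 gene between mice and not different genes. Differences were tested with limma (2-sided, Benjamini-Hochberg adjusted over all 10862 genes tested), and a gene was called, here also written as rose or fell, at p below 0.001 with an adjusted p below 0.05. Of the 10862 genes, 831 were called, 336 higher and 495 lower after 1 Gy x-rays (59.6% lower), which is a background of 7.65% in either direction, 3.09% higher and 4.56% lower. At an unadjusted p below 0.05 there were 3989 of the 10862 genes, 1808 higher and 2181 lower. Counts of list members at that threshold are to be read beside this large background. All 6 x-ray mice lay above all 5 controls for 4.6% of the genes and below them for 5.92%. Centring the arrays on the 75th percentile moved the median gene to -0.14 and the share of lower calls to 78.0% of 914, and centring on spike-in controls moved them to 0.15 and 34.2% of 448. The count fell to 502 without control replicate 3, 411 without control replicate 5 and 540 without x-ray replicate 4. The share of lower calls also depended on single mice. It was 42.3% of 965 without x-ray replicate 6 and 74.9% of 794 without control replicate 1.

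The controls were all scanned on 1 date and the x-ray arrays on 2 other dates (replicates 1, 4, 5 and 6 on one, replicates 2 and 3 on the other), so that dose and scan date cannot be told apart. With the date as a random block (consensus correlation 0.27) 3 genes were called, Psrc1, Cdkn1a and Dglucy, and 1920 had an unadjusted p below 0.05; with the slide as a random block 365 were called, all of them among the 831. Against the same controls, the 4 mice of the first date gave 324 higher and 553 lower calls, and the 2 of the second date 570 higher and 68 lower. Spots well above background made up 53.5 to 64.6% of an x-ray array and 54.8 to 63.4% of a control array. Transcripts typical of hepatocytes (42 genes on the array) were well above background for 40 to 42 genes in the x-ray mice and 31 to 42 in the controls. Their mean level over the 15 tested was 3.09 to 7.37 in the x-ray mice, lowest in the 2 of the second scan date, and 0.31 to 6.78 in the controls, lowest in replicates 2 and 5. None of the 15 was called (1 at an unadjusted p below 0.05), the groups overlapped, and the part of these transcripts in the results was not tested beyond the values given below. With the mean level of the 42 hepatocyte genes as a covariate, a fit added after seeing the data, 614 genes were called, 352 higher and 262 lower. Markers of the labelled tissue were present: all 30 T cell, 27 B cell and 24 platelet genes on the array were well above background in every one of the 11 mice. All 42 hepatocyte genes were so in some mice too, so that detection alone does not set blood apart. Whether the 1 Gy x-ray mice were irradiated or bled together is not given in the sources used here, so that p-values measure the spread between these mice.

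Several targets of p53 rose. Of 12 tested genes of p53-dependent arrest and feedback, 6 rose and none fell, with a median log2 fold change of 0.95 against -0.01 over all genes tested. Of 9 tested genes of p53-dependent apoptosis 4 rose and none fell (median 0.94). The lists hold 20 and 19 genes, of which 17 each were detected. Detected members that varied too little over the day 1 and day 7 arrays were not tested. Those arrays include irradiated mice, so that the filter favours members that respond, and the medians describe the tested members only. Without control replicates 2 and 5, the lowest in hepatocyte transcripts, 4 and 3 rose. Cdkn1a encodes p21, the cyclin-dependent kinase inhibitor through which p53 halts the cell cycle. In the 5 controls its level was -4.20, -2.91, -3.87, -2.87 and -3.74, and in the 6 x-ray mice it ran from -0.87 to 0.32 with a median of -0.48. The gap between the groups was wider than either group, and this was the largest rise of a p53 target (log2 fold change 3.11 with SE 0.28 and adjusted p = 4.00e-04, and adjusted p = 0.0441 with scan date as a random block). The Cdkn1a probe was well above background in all 6 x-ray mice but in 3 of 5 controls, so that the control level is the less certain of the 2.

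Psrc1, which encodes a microtubule-binding protein of the mitotic spindle and is a p53 target, had the lowest p of the p53 targets. Its level was -4.10, -3.79, -4.22, -4.15 and -4.33 in the controls and ran from -1.97 to -1.34 with a median of -1.79 in the x-ray mice (log2 fold change 2.42 with SE 0.17 and adjusted p = 3.69e-05; 0.0017 for the adjusted p with scan date as a random block). Ccng1, the p53-induced cyclin G1, stood at 0.18, 0.35, 0.36, 0.21 and 0.23 in the controls. After 1 Gy it ran from 1.11 to 1.66 with a median of 1.31 (log2 fold change 1.10 with SE 0.14 and adjusted p = 0.00133). The controls of Ccng1 lay in a narrow band, and no x-ray mouse came near it. Of the other called members of the arrest and feedback list, which are not all genes of arrest, Ccnd1 (cyclin D1) rose by 1.55. Gtse1, which escorts p53 out of the nucleus, rose by 0.90 and Zmat3, an RNA-binding p53 target, by 0.68. For Ccnd1 1 mouse stood apart, since x-ray replicate 6 was at 3.09 and the other 5 between 0.84 and 1.28.

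The apoptosis genes called were Phlda3, Bbc3, Bax and Aen. Phlda3, which blocks the survival kinase Akt, was at 0.83, 1.63, 0.83, 1.25 and 0.66 in the controls and ran from 1.91 to 3.22 with a median of 2.57 in the x-ray mice (log2 fold change 1.58 with SE 0.27 and adjusted p = 0.00367). Bbc3 encodes PUMA, a BH3-only killer protein, and ran from 2.49 to 3.32 with a median of 2.74 after 1 Gy against 1.72, 2.19, 1.64, 1.46 and 1.68 in the controls (log2 fold change 1.11 with SE 0.19 and adjusted p = 0.00388). In both genes the groups were fully separate. Bax, the mitochondrial pore protein, lay at 3.00, 2.93, 2.51, 2.31 and 2.61 in the controls and between 3.03 and 3.95 with a median of 3.68 in the x-ray mice, where the lowest irradiated mouse was only just above the highest control (log2 fold change 0.96 with SE 0.20 and adjusted p = 0.00829). Aen, an apoptosis nuclease, rose with narrow groups (log2 fold change 0.94 with SE 0.14 and adjusted p = 0.00253). The 4 mice of the first scan date and the 2 of the second gave the same direction in each of these genes, 1.28 and 2.18 for Phlda3, 0.92 and 1.49 for Bbc3, and 3.22 and 2.89 for Cdkn1a. With scan date as a random block Phlda3 had an adjusted p = 0.0791, Bbc3 0.0814, Bax 0.12 and Aen 0.08.

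**Figure D1:**
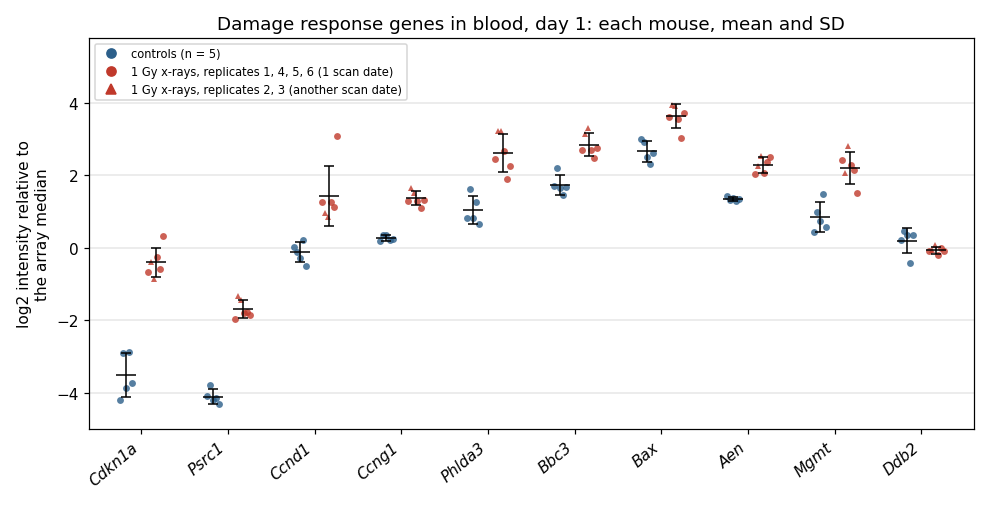
Level of 10 damage response genes in each mouse on day 1, as log2 intensity relative to the array median (vertical axis). Points are mice (triangles, the 2 x-ray mice of the second scan date) and black bars the mean and SD of 5 controls or 6 x-ray mice; all x-ray mice lie above all controls in each gene shown except Ddb2, whose groups overlap.

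Several well-known p53 targets were not called. Mdm2, the ubiquitin ligase that removes p53, varied too little over the series to enter the test, and with that filter left off it stood 0.39 log2 units higher (SE 0.15, adjusted p = 0.094). The death receptor gene Fas likewise had 0.50 (SE 0.14, adjusted p = 0.0313) and the nucleotide excision repair gene Xpc -0.25 (SE 0.10, adjusted p = 0.119), and neither was called. Tnfrsf10b, another death receptor gene under p53, was called with the filter left off (0.62 log2 units higher, SE 0.14, adjusted p = 0.0151). Other p53 targets removed by the filter included Trp53inp1 (0.56) and Tigar (0.09), which were higher. Lower ones were Apaf1 (-0.63), Sesn2 (-0.30), Btg2 (-0.17), Ppm1d (-0.08), Siva1 (-0.06) and Pmaip1 (-0.05), and none of these was called. Of 8 tested repair genes known to respond to damage only Mgmt, which removes alkyl groups from guanine, was called, at 0.43, 0.99, 0.74, 1.49 and 0.58 in the controls and from 1.504 to 2.82 with a median of 2.21 in the x-ray mice (log2 fold change 1.36 with SE 0.25 and adjusted p = 0.00485). Most of this list went the other way, with 6 of the 8 lower, 3 at an unadjusted p below 0.05. The median of the 8 was -0.34 and the lowest value -1.47. Ddb2, which recognises ultraviolet lesions and is a standard p53 reporter in human blood, was not called (log2 fold change -0.26 with SE 0.17 and adjusted p = 0.286), and its 6 x-ray mice lay within the range of the controls.

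The promoter of Cdkn1a is shown because the gene carried the largest change among p53 targets. RefSeq gives it a pair of start sites on GRCm38.p6, and the 250 bases before the upstream one (chr17:29090729-29090978, plus strand) hold a match to the p53 consensus site, a pair of half-sites with a spacer. The match, both half-sites and the spacer, is in capitals.
Cdkn1a: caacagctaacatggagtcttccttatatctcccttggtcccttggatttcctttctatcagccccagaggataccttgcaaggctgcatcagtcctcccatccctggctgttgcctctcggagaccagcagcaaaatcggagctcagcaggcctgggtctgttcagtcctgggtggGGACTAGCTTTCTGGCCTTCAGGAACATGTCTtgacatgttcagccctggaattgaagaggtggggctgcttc
Over windows of 300 bases (250 before and 50 after a start), a p53 site on either strand was found in 1 of the 8 called p53 targets with a window, Cdkn1a, and in 20 of 27025 genes (0.074%). A match describes these letters and not binding, and sites further from the start were not searched.

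Red blood cell genes were among the largest falls. Of 22 tested genes of the red cell membrane and blood groups, 10 fell and 1 rose, with a median of -1.43, while 4.56% of all genes fell. In bulk blood, fewer cells of a type and less RNA per cell cannot be told apart. The study states that total blood counts stayed in the normal range and that white cell composition did not change significantly. Whether cell numbers had a part in the red cell, B cell, NK or platelet differences was not tested here. Ank1 encodes ankyrin, which ties the cell skeleton to the membrane. Its level was -0.21, -0.21, -0.32, 1.28 and 0.97 in the controls and ran from -4.37 to -2.07 with a median of -3.09 in the x-ray mice (log2 fold change -3.37 with SE 0.43 and adjusted p = 0.00133). The highest irradiated mouse was more than 1 log2 unit below the lowest control.

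Slc4a1 (band 3, the anion exchanger) lay at 5.37, 6.24, 5.67, 7.08 and 6.71 in the controls and ran from 2.38 to 4.51 with a median of 3.42 in the x-ray mice (log2 fold change -2.82 with SE 0.41 and adjusted p = 0.00213). Epb42, which anchors band 3 to ankyrin, fell by 2.65 and its groups were separate by less than 1 log2 unit (SE 0.48, adjusted p = 0.00471). Others that fell were Kel (-2.02), Epb41 (-2.02), Rhd (-1.67), Ermap (-1.41) and Acp1 (-0.82). Gypc, which encodes glycophorin C, went the other way, at 2.71, 2.62, 2.46, 2.64 and 2.54 in the controls and from 3.18 to 4.08 with a median of 3.52 in the x-ray mice (log2 fold change 0.99 with SE 0.19 and adjusted p = 0.00572). In Ank1, Slc4a1 and Epb42, control replicates 4 and 5 were the highest controls, and replicates 2 and 3, the mice of the second scan date, the highest x-ray mice.

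The falls were smaller in the mice of the second date. The 4 mice of the first date gave -3.80 for Ank1 and -3.25 for Slc4a1, and the 2 of the second date -2.51 and -1.95. The median over the membrane list was -1.82 for the first date and -0.64 for the second. With the scan date as a random block no membrane gene was called, with adjusted p = 0.0643 for Ank1 and 0.0749 for Slc4a1, and 15 of the 22 were lower at an unadjusted p below 0.05. With the hepatocyte level as a covariate 7 of the 22 fell, and without control replicates 2 and 5, the lowest in hepatocyte transcripts, 5.

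**Figure D2:**
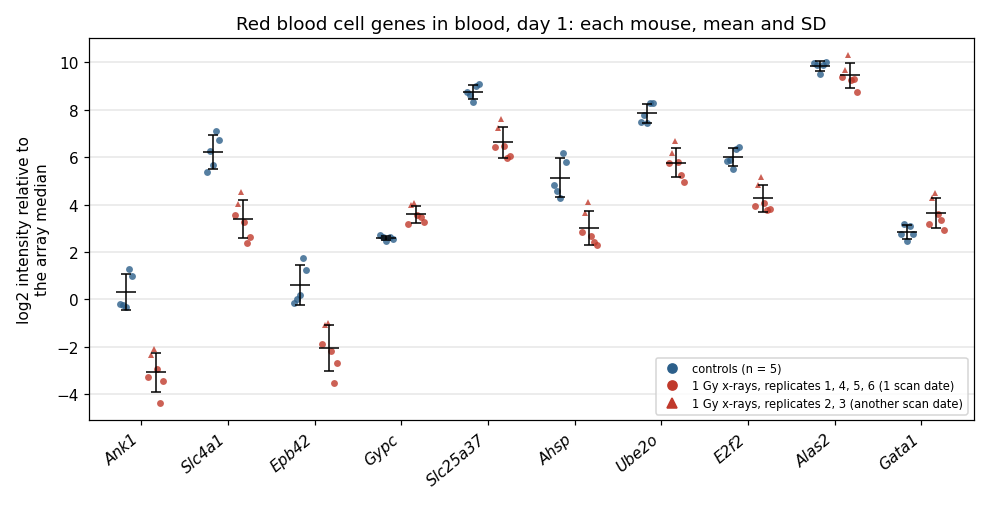
Level of 10 red blood cell genes in each mouse on day 1, as log2 intensity relative to the array median (vertical axis), drawn as in the plot of damage response genes. In 7 genes the x-ray mice lie below the controls with no overlap, Gypc lies above, and in Alas2 and Gata1 the groups overlap.

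Many genes at work inside the reticulocyte fell as well. Of 21 tested genes of ubiquitin conjugation and organelle clearance, which strip the reticulocyte of its organelles and surplus proteins, 12 fell and none rose (median -0.87). The list did not move 1 way only, since 4 members were higher at an unadjusted p below 0.05. In 2 members every x-ray mouse was above every control, and the highest log2 fold change was 1.73. Ube2o, the ubiquitin enzyme that removes ribosomes and unpaired globin chains from reticulocytes, was at 7.48, 7.78, 7.45, 8.28 and 8.26 in the controls and from 4.95 to 6.69 with a median of 5.78 in the x-ray mice (log2 fold change -2.08 with SE 0.30 and adjusted p = 0.00213). Yod1, a deubiquitinase, fell by 2.11, the ring ligase gene Rnf10 by 1.96 and the conjugating enzyme gene Ube2h by 1.93, each with separate groups. Without control replicate 4, and equally without replicate 5, 7 of the 21 fell in place of 12. The count was also 7 with the hepatocyte level as a covariate, 5 without control replicates 2 and 5, 13 in the mice of the first scan date and none in those of the second.

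Heme genes moved less. Of 21 tested genes of heme synthesis and iron uptake 3 fell and none rose (median -0.40). These were Slc25a37 (mitoferrin, which brings iron into the mitochondrion; log2 fold change -2.13 with SE 0.29 and adjusted p = 0.00173), Glrx5, needed for iron-sulfur clusters (log2 fold change -1.56 with SE 0.29 and adjusted p = 0.00525), and Fech, which inserts iron into the porphyrin ring (log2 fold change -1.35 with SE 0.27 and adjusted p = 0.00729). Slc25a37 was at 8.74, 8.60, 8.32, 8.98 and 9.08 in the controls and from 5.95 to 7.58 with a median of 6.45 in the x-ray mice. Alas2, the rate-limiting enzyme of erythroid heme synthesis, was not called (log2 fold change -0.40 with SE 0.24 and adjusted p = 0.244), and its sign was positive in the 2 mice of the second scan date (0.15).

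Of 18 tested erythroid transcription factor and globin genes 5 fell and none rose. Ahsp, the chaperone of free alpha globin, lay at 4.83, 4.56, 4.26, 6.16 and 5.803 in the controls and ran from 2.29 to 4.09 with a median of 2.77 in the x-ray mice (log2 fold change -2.12 with SE 0.41 and adjusted p = 0.0062). E2f2, the E2F factor that guides the last divisions of erythroblasts, was at 5.81, 5.87, 5.51, 6.35 and 6.44 in the controls and from 3.78 to 5.15 with a median of 4.00 after 1 Gy (log2 fold change -1.73 with SE 0.28 and adjusted p = 0.00305). Lmo2, a bridging protein of the GATA1 complex, fell by 1.64, Trim58, a late erythroid ubiquitin ligase, by 1.51 and Bcl11a, the repressor of fetal globin, by 1.01. The other factors of the same complex were higher without being called, with 1.11 for Tal1 (adjusted p = 0.0151) and 0.79 for Gata1 (adjusted p = 0.0662), and both are also expressed in megakaryocytes. Globin genes were not called, at -0.02 for Hba-a1 and -0.73 for Hbb-b1, and globin RNA had been reduced before labelling. The number of these genes that fell was 2 without control replicates 2 and 5 together, and 3 without any 1 of control replicates 1, 2 and 5 or of x-ray replicates 1, 4, 5 and 6. Sox6, an erythroid factor that was in no list, was among the 10 largest falls (log2 fold change -2.69 with SE 0.48 and adjusted p = 0.00458), and its probe was well above background in 1 of the 6 x-ray mice and in all 5 controls.

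B cell transcripts were lower to a smaller and more even degree. All 26 tested B cell genes had a lower mean after 1 Gy, 24 at an unadjusted p below 0.05, and 13 fell (median -0.85). Fcer2a (CD23, the low-affinity IgE receptor of follicular B cells) was at 2.32, 1.91, 2.50, 1.91 and 2.71 in the controls and ran from 0.48 to 0.99 with a median of 0.75 in the x-ray mice (log2 fold change -1.54 with SE 0.19 and adjusted p = 0.00133). Siglecg, an inhibitory receptor of B cells, lay at 0.84, 1.10, 1.33, 0.47 and 1.09 in the controls and from -0.62 to -0.20 with a median of -0.28 after 1 Gy (log2 fold change -1.32 with SE 0.18 and adjusted p = 0.00154). Every irradiated mouse was below every control in both. The B cell kinase gene Blk (-1.18), the lineage factor Ebf1 (-1.14), the IgM Fc receptor gene Fcmr (-1.11) and the complement receptor gene Cr2 (-1.08) fell as well. Cd79a (log2 fold change -0.82 with SE 0.21 and adjusted p = 0.0192) and Ms4a1 (CD20; log2 fold change -0.71 with SE 0.23 and adjusted p = 0.0436) were lower but were not called. Control replicate 4 had the lowest B cell level of the controls, 20 genes fell without it, and 8 fell without any 1 of control replicates 1, 3 and 5.

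MHC class II genes, which B cells and other antigen-presenting cells use to show peptides to helper T cells, fell in 6 of 10 cases and were lower in all 10 (median -0.82). Ciita, the master regulator of the class, fell by 1.09, H2-Aa by 1.07 and H2-DMb2, which helps load peptides, by 1.07, and their groups did not overlap. The count was 3 without any 1 of control replicates 1, 2, 3 and 5 or of x-ray replicates 1, 3 and 4. The invariant chain gene Cd74 (log2 fold change -0.89 with SE 0.21 and adjusted p = 0.013) fell with 1 control, replicate 4, within the irradiated range. Ccr6, a chemokine receptor of B cells, also fell, from 3.26, 3.16, 3.06, 2.97 and 3.29 in the controls to levels from 1.53 to 2.34 with a median of 2.19 (log2 fold change -1.06 with SE 0.17 and adjusted p = 0.00295). The mean level over the 26 B cell genes was 1.95 to 2.53 in the x-ray mice and 2.64 to 3.39 in the controls, and no x-ray mouse reached the lowest control. The same 26 genes had a median of -0.89 for the first scan date and -0.76 for the second, with 8 and 2 called. With the hepatocyte level as a covariate 8 of 26 B cell and 3 of 10 MHC class II genes fell, and without control replicates 2 and 5, 2 and 2. Spike-in centring left 1 B cell and 0 MHC class II genes called lower, and a fit of all day 1 groups together 2 and 0. All members of both lists kept a lower mean in these 2 alternatives. With the scan date as a random block no B cell or MHC class II gene was called, 17 of 26 and 7 of 10 being lower at an unadjusted p below 0.05.

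No T cell gene fell. Of 30 tested 1 rose, Lat, the adaptor that links the T cell receptor to its signalling enzymes (log2 fold change 0.74 with SE 0.17 and adjusted p = 0.0119), and the median was 0.22. Cd3e was at 4.04, 3.80, 3.55, 3.27 and 4.01 in the controls and from 3.78 to 4.67 with a median of 3.98 in the x-ray mice (log2 fold change 0.37 with SE 0.21 and adjusted p = 0.223), so that the groups overlapped. The call of Lat was lost without any 1 of 8 of the 11 mice. Cd8a (log2 fold change 0.31 with SE 0.22 and adjusted p = 0.329) and Cd4 (log2 fold change 1.21 with SE 0.44 and adjusted p = 0.0683) were not called.

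NK and cytotoxic genes stood higher. All 23 tested had a higher mean, 21 at an unadjusted p below 0.05, and 6 rose (median 0.96) against 3.09% of all genes. Fasl, the ligand with which cytotoxic cells trigger Fas, was at -0.06, -0.23, 0.10, -0.17 and -0.02 in the controls and from 0.80 to 2.40 with a median of 1.40 in the x-ray mice (log2 fold change 1.59 with SE 0.24 and adjusted p = 0.00253). Gzmb (granzyme B) lay at 1.13, 1.26, 1.46, 1.37 and 1.46 in the controls and ran from 2.05 to 3.39 with a median of 2.87 after 1 Gy (log2 fold change 1.51 with SE 0.22 and adjusted p = 0.00213). The control values of both genes fell in a narrow band, and the irradiated mice spread far more widely.

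The chemokine gene Xcl1 (log2 fold change 1.53 with SE 0.21 and adjusted p = 0.00173), Ifng (log2 fold change 1.29 with SE 0.21 and adjusted p = 0.00295), Gzma (log2 fold change 1.20, adjusted p = 0.00989) and the interleukin receptor gene Il2rb (log2 fold change 1.19, adjusted p = 0.00356) made up the rest. Chemokine receptors of effector lymphocytes rose with them: Cxcr6 was at 1.69, 1.45, 1.82, 1.45 and 1.82 in the controls and from 2.90 to 4.15 with a median of 3.30 in the x-ray mice (log2 fold change 1.74 with SE 0.23 and adjusted p = 0.00154), and Cxcr3 rose by 1.05. The rise was larger in the mice of the second scan date, where 17 of 23 cytotoxic genes rose (median 1.40) against 5 for the first date (median 0.74), and 15 rose without x-ray replicate 6 and 10 with the hepatocyte level as a covariate. With the date as a random block none was called and 19 of 23 were higher at an unadjusted p below 0.05.

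Platelet genes stood higher too, but none passed the test. All 24 were higher, 19 at an unadjusted p below 0.05, and the median was 0.88. Clec1b, the platelet receptor for podoplanin, was at 6.63, 6.99, 6.48, 6.99 and 6.61 in the controls and from 7.04 to 8.55 with a median of 7.69 in the x-ray mice, which did not overlap (log2 fold change 1.04 with SE 0.24 and adjusted p = 0.0135). Pf4, platelet factor 4, had a difference of 0.47 with SE 0.20 and adjusted p = 0.104. In the mice of the second scan date 9 of the 24 rose (median 1.47) and in those of the first none (median 0.65), and 10 rose without x-ray replicate 6. Neutrophil and monocyte genes gave 1 call each of 25, Cd177, a neutrophil surface antigen (log2 fold change -1.43 with SE 0.30 and adjusted p = 0.00865), and Ace, the angiotensin-converting enzyme of patrolling monocytes (log2 fold change -1.20 with SE 0.19 and adjusted p = 0.00282), both lower. Without x-ray replicate 6 there were 2 lower neutrophil calls, and without x-ray replicate 2 there were 3 lower monocyte calls. The call of Cd177 was lost without any 1 of control replicates 2 and 5 and x-ray replicates 1 and 5. S100a8, the calprotectin subunit abundant in neutrophils, was at 5.77, 6.49, 5.10, 6.32 and 5.37 in the controls and from 5.45 to 6.03 with a median of 5.94 in the x-ray mice (log2 fold change 0.04 with SE 0.25 and adjusted p = 0.913), and the irradiated values lay inside the control range.

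**Figure D3:**
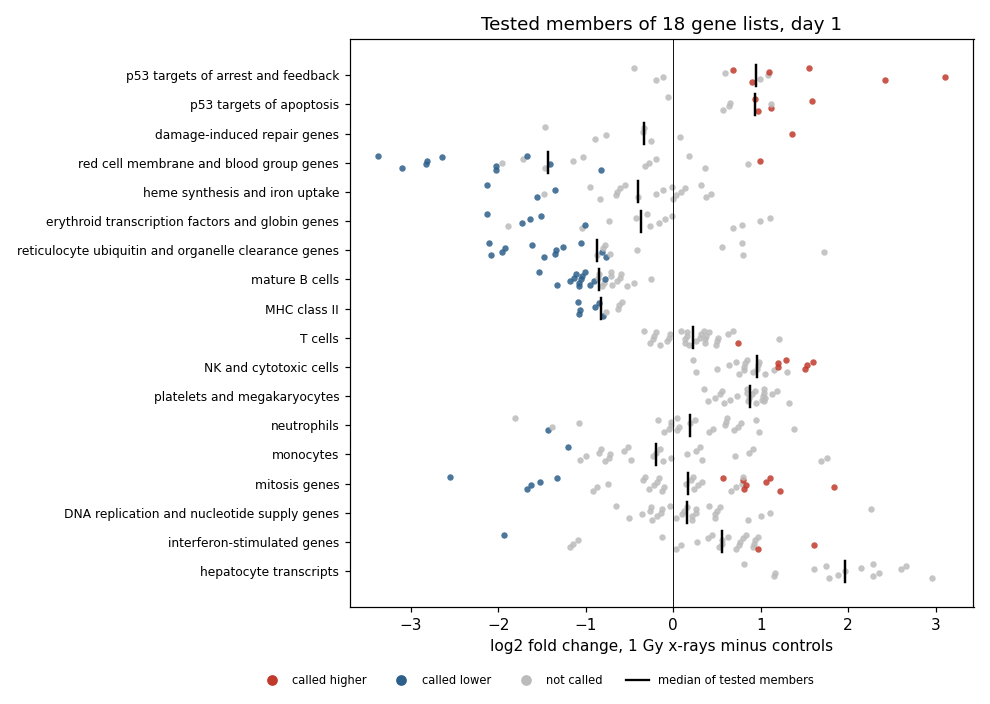
Log2 fold change (1 Gy x-rays minus controls, horizontal axis) of every tested member of 18 gene lists, with called members in red (higher) or blue (lower) and the median as a black bar. The p53 lists, NK and platelet genes lie to the right, red cell, B cell and MHC class II genes to the left, and mitosis genes carry calls on both sides; hepatocyte genes lie to the right with no call.

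Mitosis genes split. Of 34 tested, 8 rose and 5 fell, with a median of 0.17, and each of the 13 separated the groups fully. The genes that rose included those of entry into mitosis. Cdk1, the kinase that drives it, was at -4.01, -4.08, -3.82, -3.55 and -4.03 in the controls and from -2.45 to -1.51 with a median of -2.19 in the x-ray mice (log2 fold change 1.84 with SE 0.20 and adjusted p = 0.00111). Its partner Ccnb1 (cyclin B1) lay at -3.25, -2.98, -3.18, -3.20 and -3.15 in the controls and ran from -2.44 to -1.44 with a median of -1.92 after 1 Gy (log2 fold change 1.22 with SE 0.18 and adjusted p = 0.00213). The spindle motor gene Kif22 (1.10), Birc5 (survivin, 1.06), Cdca3 (0.84), Cdca8 (borealin, 0.81), the kinase gene Plk1 (0.79) and the kinetochore gene Spc25 (0.57) rose less.

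The genes that fell were Nusap1, Cdc25b, Ube2c, Ccna2 and Fzr1. The study had singled out these same genes from the same arrays, as lower on day 1 and higher on day 7. Their fall was therefore known before the list was chosen and is no independent result. Nusap1, which bundles spindle microtubules, was at 3.54, 3.61, 3.55, 4.196 and 4.21 in the controls and from 0.62 to 2.20 with a median of 1.07 in the x-ray mice (log2 fold change -2.55 with SE 0.31 and adjusted p = 0.00133). Cdc25b, a phosphatase that activates Cdk1, lay at 5.94, 6.05, 5.79, 5.96 and 6.43 in the controls and ran from 3.67 to 5.52 with a median of 4.12 after 1 Gy (log2 fold change -1.67 with SE 0.33 and adjusted p = 0.00689). Ube2c, the ubiquitin-conjugating enzyme of the anaphase-promoting complex, stood at 5.07, 5.51, 5.26, 5.87 and 6.12 in the controls and from 3.06 to 4.98 with a median of 3.91 in the irradiated mice (log2 fold change -1.63 with SE 0.35 and adjusted p = 0.00905). As in the red cell genes, x-ray replicates 2 and 3 were the highest irradiated mice in all 3 of these genes. Ccna2 (cyclin A2; log2 fold change -1.52 with SE 0.28 and adjusted p = 0.00464) and Fzr1 (the anaphase-promoting complex activator Cdh1; log2 fold change -1.33 with SE 0.21 and adjusted p = 0.00256) had smaller falls. For the 2 mice of the second scan date Nusap1 was -1.73, Cdc25b -0.72 and Ube2c -0.78, against -2.96, -2.14 and -2.05 for the first, whereas Cdk1 was 1.64 against 1.94 and Ccnb1 1.23 against 1.22. The number that rose was 5 without control replicate 3, and 4 rose and 2 fell without control replicates 2 and 5. With the scan date as a random block none of the 34 was called, with adjusted p = 0.0546 for Nusap1 and 0.0631 for Cdk1, and 11 were higher and 6 lower at an unadjusted p below 0.05.

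**Figure D4:**
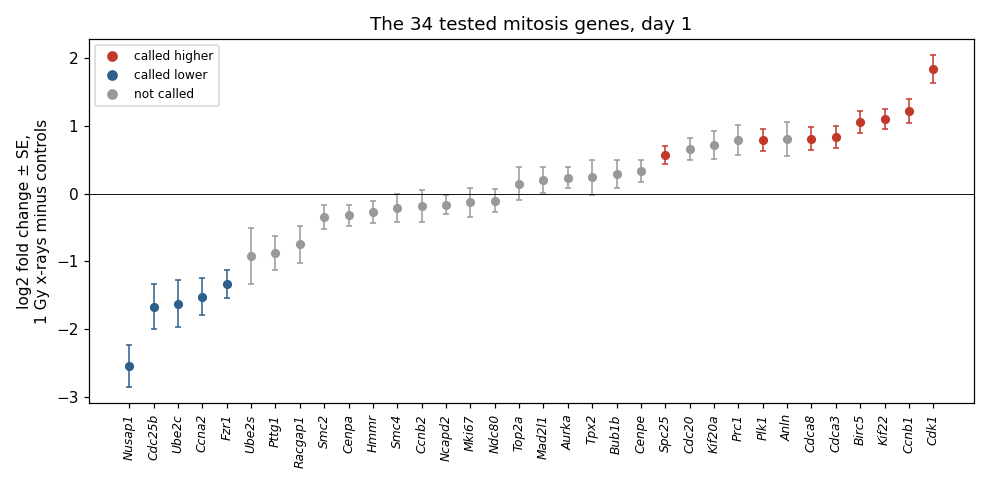
Log2 fold change with its SE (1 Gy x-rays minus controls, vertical axis) of the 34 tested mitosis genes on day 1, ordered by value, with red for genes called higher, blue for genes called lower and grey for the others. Nusap1 (-2.55) and Cdk1 (1.84) mark the ends, with 5 genes called lower and 8 called higher.

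Promoters of 1 gene from each side are shown because the list moved in both directions. The hexamer TTTGAA, the core of the cell cycle homology region (CHR) found in promoters of mitosis genes, is in capitals, on either strand, in the 250 bases before the start of Cdk1 (chr10:69352913-69353162, minus strand), which rose, and of Ube2c (chr2:164769679-164769928, plus strand), which fell (RefSeq starts, GRCm38.p6).
Cdk1: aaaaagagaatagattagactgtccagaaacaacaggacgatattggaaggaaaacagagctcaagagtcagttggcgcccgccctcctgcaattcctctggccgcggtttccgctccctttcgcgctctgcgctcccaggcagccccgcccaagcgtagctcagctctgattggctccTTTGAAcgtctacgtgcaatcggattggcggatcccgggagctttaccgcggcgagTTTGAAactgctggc
Ube2c: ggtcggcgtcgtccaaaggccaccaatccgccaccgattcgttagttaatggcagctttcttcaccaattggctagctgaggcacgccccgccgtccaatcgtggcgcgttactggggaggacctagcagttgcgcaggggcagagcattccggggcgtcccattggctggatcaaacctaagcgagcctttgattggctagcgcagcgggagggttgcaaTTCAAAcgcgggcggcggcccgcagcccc
Cdk1 holds 2 matches and Ube2c 1. In windows of 300 bases (250 before and 50 after a start), the hexamer was present in 6 of the 8 genes that rose (75%), in 1 of the 4 that fell and have a window (25%) and in 20.2% of 27025 genes. In the 250 bases before the start it was present in 2 of 8, 1 of 4 and 18.3%. The genes were grouped by their measured change and the figures are a description.

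Genes of DNA replication gave no call among 27 tested (7 higher and 3 lower at an unadjusted p below 0.05), although 2 rose without x-ray replicate 6 and 2 fell without control replicate 4. In mismatch, base and nucleotide excision repair 2 of 9 fell, among them Mbd4, a glycosylase for mismatches in methylated DNA (log2 fold change -0.90 with SE 0.17 and adjusted p = 0.00572). Of 10 genes that repair double-strand breaks, the lesion that defines x-ray damage, 1 rose and 1 fell, Trp53bp1, which steers breaks toward end joining (log2 fold change -0.70 with SE 0.15 and adjusted p = 0.00925). The call of Trp53bp1 was lost without any 1 of 7 of the 11 mice. Genes of ribosomal proteins (32 tested) and sterol synthesis (22 tested) had no call, and oxidative phosphorylation (31 tested) and fatty acid beta-oxidation (24 tested) 1 each, Ndufa4 (0.71) and Eci2 (1.17), both higher. Ndufa4 was not called without any 1 of control replicates 1, 2, 3 and 5 or x-ray replicate 1, nor Eci2 without control replicate 2 or 5 or x-ray replicate 5.

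Interferon-stimulated genes were mostly higher without being called. Of 25 tested, 14 were higher at an unadjusted p below 0.05 and 2 rose, the antiviral genes Ifit3 (log2 fold change 1.61 with SE 0.29 and adjusted p = 0.00485) and Ifit1 (log2 fold change 0.97 with SE 0.21 and adjusted p = 0.0092), with a median of 0.56. Rsad2 (viperin), another antiviral gene of this list, fell instead, from 6.52, 6.81, 6.91, 7.62 and 7.34 in the controls to levels from 4.33 to 6.27 with a median of 4.93 (log2 fold change -1.93 with SE 0.36 and adjusted p = 0.00523). As in the red cell genes, x-ray replicates 2 and 3 were its highest irradiated mice. Of 6 Schlafen genes, which restrain proliferation of lymphoid and myeloid cells, 2 rose, Slfn4 (log2 fold change 1.73 with SE 0.37 and adjusted p = 0.00899) and Slfn3 (log2 fold change 1.39 with SE 0.30 and adjusted p = 0.0102). Of the 2, Slfn4 separated the groups and Slfn3 did not, and neither was called without any 1 of control replicates 1, 3 and 5 or of x-ray replicates 4, 5 and 6. Without any 1 of control replicates 1, 2, 3 and 5 only 1 interferon-stimulated gene rose, and without control replicate 4 there were 4.

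Several of the largest changes outside the lists had a probe well above background in every x-ray mouse. Usp2, a deubiquitinase, rose by 2.63, Calml4, a calmodulin-like gene well above background in 3 of 5 controls, by 2.54, Pmp22, a membrane protein best known from myelin, by 2.53, Serpinb2, an inhibitor of plasminogen activators, by 2.17 and Socs2, a feedback inhibitor of cytokine receptors, by 2.08. In Pmp22, Serpinb2 and Calml4 x-ray replicate 6 was highest, at 3.39, 3.22 and 0.76. Socs2 was even, at -2.71, -3.08, -2.51, -2.13 and -2.78 in the controls and from -1.08 to 0.06 with a median of -0.61 in the x-ray mice (log2 fold change 2.08 with SE 0.25 and adjusted p = 0.00133). Another 3 of the 10 largest rises came from probes with no gene symbol. The acute-phase gene Saa3, serum amyloid A3, had the largest fold change of all named genes (log2 fold change 4.39 with SE 0.98 and adjusted p = 0.0111), but its x-ray mice ran from 0.19 to 7.30 with a median of 3.98 and overlapped the controls, which reached 1.32, and it was not called without any 1 of 8 of the 11 mice. Its relative Saa1, made in the liver, was not called (log2 fold change 3.28 with SE 1.40 and adjusted p = 0.111).

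Among the falls, Klk1b5, a glandular kallikrein, was at -0.88, -1.03, -0.64, -1.16 and -1.004 in the controls and from -4.01 to -2.43 with a median of -3.48 in the x-ray mice (log2 fold change -2.45 with SE 0.25 and adjusted p = 9.68e-04). The kallikreins Klk1 (-2.39), Klk1b26 (-2.09) and Klk1b3 (-1.52) fell with it, and were looked up after its value was seen. These genes are near-identical copies, so that their probes may read each other's transcripts. Kcnk3, a potassium leak channel (log2 fold change -2.85 with SE 0.41 and adjusted p = 0.00192), was well above background in 3 of the 6 x-ray mice and all 5 controls. The fall of 4930557K07Rik (log2 fold change -2.62 with SE 0.40 and adjusted p = 0.00253) had 1 low control, replicate 1 at -2.65.

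Set against the other day 1 exposures, the 1 Gy x-ray mice had higher levels of B and T cell transcripts. The direct comparisons use the same 6 mice, so that they are not independent of each other or of the comparison with controls. Of the 26 B cell genes, 21 were lower after 4 Gy than after 1 Gy x-rays (median -3.00) and 18 lower after 1 Gy neutrons than after 1 Gy x-rays (median -1.62), with a background of 13.1% lower and 4.58% higher for the dose comparison (17.6% in either direction) and 7.72% lower and 1.33% higher for the radiation comparison (9.05% in either direction). Fcer2a differed by -5.02 (SE 0.23, adjusted p = 7.11e-08) for 4 Gy minus 1 Gy and by -2.33 (SE 0.27, adjusted p = 4.60e-04) for neutrons minus x-rays. T cell genes, which had not fallen after 1 Gy x-rays, were lower in 23 of 30 at 4 Gy (median -2.03) and 20 of 30 after neutrons (median -1.18). Cd8a differed by -3.60 (SE 0.27, adjusted p = 4.65e-06) and -1.97 (SE 0.22, adjusted p = 4.55e-04).

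The NK and red cell membrane lists gave no call in either direct comparison. Their medians were -0.26 and -0.86 for 4 Gy minus 1 Gy, and -0.16 and 0.25 for neutrons minus x-rays, and in Ank1 the differences were -2.21 (SE 0.62, adjusted p = 0.0135) and 0.59 (SE 0.62, adjusted p = 0.533). A value that misses the threshold does not show that the exposures acted alike. Among p53 targets Cdkn1a was higher at 4 Gy by 1.04 (SE 0.23, adjusted p = 0.00427), and by 1.09 (SE 0.33, adjusted p = 0.033) after neutrons, which was not called, whereas Psrc1 differed by -0.03 (SE 0.22, adjusted p = 0.924) and 0.26 (SE 0.21, adjusted p = 0.421) and was not called in either. Mitosis genes were lower in 21 of 34 at 4 Gy and in 10 of 34 after neutrons. Both Cdk1, at -1.12 (SE 0.21, adjusted p = 0.00183) and -0.93 (SE 0.21, adjusted p = 0.00816), and Ccnb1, at -1.71 (SE 0.21, adjusted p = 1.36e-04) and -0.93 (SE 0.20, adjusted p = 0.00714), which rose after 1 Gy x-rays, were lower after the other exposures than after it. For Nusap1, which fell, the differences were -1.63 (SE 0.40, adjusted p = 0.00651) and -0.000298 (SE 0.45, adjusted p = 0.999), and neither was called. Interferon-stimulated genes were higher in 10 of 25 after neutrons and in 5 of 25 at 4 Gy, Ifit3 by 2.30 (SE 0.24, adjusted p = 4.39e-04) and 2.05 (SE 0.36, adjusted p = 0.00122). With the scan date as a fixed block, which leaves the comparison to dates that hold both groups, 120 genes were called for the dose comparison and none for the radiation comparison (1884 at an unadjusted p below 0.05).

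**Figure D5:**
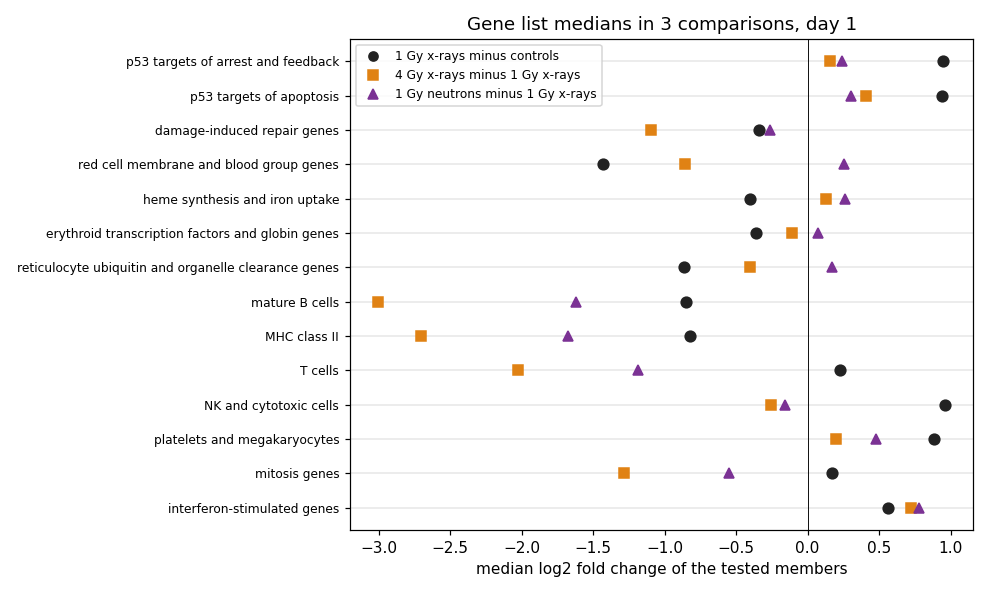
Median log2 fold change of the tested members of 14 gene lists (horizontal axis) in 3 comparisons of day 1 blood: 1 Gy x-rays minus controls (circles), 4 Gy minus 1 Gy x-rays (squares) and 1 Gy neutrons minus 1 Gy x-rays (triangles). B cell medians lie at -0.85, -3.00 and -1.62 and T cell medians at 0.22, -2.03 and -1.18; the red cell membrane median lies lowest in the comparison with controls.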

How the data were processed

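Blood RNA of 72 mice was hybridised to single-colour Agilent whole mouse genome arrays. The deposited intensity of each spot is background-corrected by Agilent Feature Extraction 12.0.2 (per the labels), and the authors flagged spots that are non-uniform or not well above background. The deposited table of log2 values, which the authors normalized between arrays, was not used, since only 12 of its 72 columns follow the array of their own sample and none of the columns of the 6 x-ray mice does.

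Intensities were log2-transformed, outlier spots left out, spots of a probe averaged, and each array set to a median of 0 over detected probes. As in the study's methods, a probe was dropped where 25% or more of its spots were flagged, counted over the 56 day 1 and day 7 arrays (19808 remained), as were those less than 1.5-fold from their median on more than 80% of these arrays (12556 remained), and the brightest probe stood for a gene. Groups were compared with limma 3.58.1 (R 4.3.3), fitted on the compared groups only. On simulated data with 10786 genes the test called 42% of changes of 1 log2 unit and 88% of changes of 2, with 5 false calls. The simulated noise was independent between genes and arrays and held no scan date or slide effect. These figures therefore hold for that setting and do not give the number of false calls in the real arrays. Replicate arrays were compared and none were identical (correlation within x-ray arrays 0.937 to 0.986, within controls 0.945 to 0.988).

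Named genes are the 10 largest called rises and falls with separate groups, up to 4 called members at each end of a list, the lowest p of lists with no call, and a fixed set of markers; others are said to be added. The comparison, lists and genes were chosen with earlier results of these data known. Signal over background and the number of mice limit precision. Normexp background correction, 4 other centrings, filters, probe rules, models, blocks and leaving out each mouse were tried as alternatives. Promoter windows are from RefSeq (GRCm38.p6). Some genes that the rule names are not reported here.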

Additional observations from a re-analysis of the deposited data

Results flagged for a closer look

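In 15 of 214 groups of 5 or 6 mice, the highest or lowest mouse stood apart by Dixon's 95% criterion (a gap over 0.71 of the range for 5 mice and 0.625 for 6), where chance gives about 1 in 20. X-ray replicate 6 was the highest of its group in Pmp22 (3.39), Serpinb2 (3.22), Ccnd1 (3.09) and a probe with no gene symbol (4.18). The same mouse was highest in the mean level of the p53 arrest and feedback genes (-0.39) and of the DNA replication genes (0.25). Control replicate 2 was highest in that unnamed probe (0.85), in Kif22 (-0.71) and in the mean of the p53 arrest and feedback genes (-1.42). X-ray replicate 2 was highest in Ifit1 (1.51), and x-ray replicate 1 lowest in the mean of the neutrophil genes (1.04). Control replicate 4 was lowest in Cd74 (5.64) and in the mean of the mature B cell genes (2.64), and control replicate 1 was lowest in Rnf10 (4.53) and 4930557K07Rik (-2.65). All of these are log2 levels relative to the array median.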

How the results depend on the processing

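The number of called genes in the comparison with controls (831) moved by over 1.5 times with normexp background correction (4), spike-in centring (448), filters over the compared arrays (507), all day 1 groups in the fit (480), scan date (3) or slide (365) as a random block, and, chosen after seeing the data, without control replicates 2 and 5 (235). It ran from 411 without control replicate 5 to 965 without x-ray replicate 6. For 4 Gy against 1 Gy x-rays (1914) the count was 413 with normexp, 1103 with spike-in centring, 120 with scan date and 91 with slide as a fixed block, and 1324 to 2076 when 1 mouse was left out. For neutrons against x-rays (983) it was 23 with normexp, 69 with spike-in centring, 1548 without the fold filter and 0 with scan date or slide as a fixed block (limma; 1884 and 583 at an unadjusted p below 0.05), and 634, without x-ray replicate 2, to 926 when 1 mouse was left out. Spike-in centring brought the share of lower calls to 52.8% for the dose comparison and 56.5% for the radiation comparison. Normexp fitted the arrays unequally (SD over spots 1.27 to 2.70 on the log2 scale in the 11 arrays), and subtracting the local background, added after seeing the data, gave 762, 1716 and 827.

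With the replicate block the counts were 493 (320 higher and 173 lower), 477 and 429. Same-numbered mice did not deviate together (correlations of -0.17, 0.49, -0.38, 0.62 and -0.34 for replicates 1 to 5, with only replicate 4 correlating best with its own number), so that the mice share only a number.

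Of the genes picked by the naming rule, 79 were called and were followed through the alternatives (called genes mentioned beside them, such as Dglucy, Gtse1 or Kel, were not). No change of direction was found among those of the 79 that each alternative measured; 2 (Cdkn1a and Psrc1) kept their call with scan date as a random block, 57 with slide, and 57 to 74 when 1 mouse was left out. Genes with no call changed sign as follows: Bcl2l2 with normexp (-0.13); Rps25 with normexp (0.25), spike-in centring (0.26) and no fold filter (0.11); S100a8 with 75th percentile centring (-0.060), quantile normalization (-0.11), without control replicate 3 (-0.13) or 5 (-0.068), its range when 1 mouse was left out being -0.13 to 0.21, and with the first scan date alone (-0.018); Alas2 (0.15) and Saa1 (-0.15) with the second scan date alone. The cause was not tested. Weak signal limits the x-ray levels of Sox6, Kcnk3, Cd177, Klk1b5 and 4930557K07Rik and the control levels of Cdkn1a, Psrc1, Calml4 and a transcript with no gene symbol, whose probes were not well above background in every mouse.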
